A study of Homo sapiens with 6 samples.

Results

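Protocadherins are the largest group of the cadherin superfamily of adhesion molecules. They were taken here as every gene of the expression table whose symbol starts with PCDH, which gave 61 of 17039 genes. By symbol, 12 belong to the alpha cluster, 15 to the beta cluster, 22 to the gamma cluster and 12 are non-clustered. PCDHA2, PCDHA3, PCDHA10, PCDHB1 and PCDH8 were not analysed here. The study sequenced poly(A) RNA of 231BR (hyphenated after the digits in the cell line field), a brain-seeking breast cancer line, and of the line it derives from, MDA-MB-231, an established triple-negative breast cancer line of mesenchymal character, in search of genes tied to brain metastasis. Each line was represented by 3 libraries. Both lines were cultured in DMEM with fetal bovine serum and penicillin-streptomycin, and only the 231BR medium also held the antibiotic G418. The 231BR cells were given by another laboratory, and the MDA-MB-231 cells were bought from ATCC. Effects of the line, of G418 and of the source of the cells therefore cannot be told apart. No source says whether the replicates were separate cultures, and p-values therefore measure the spread between these libraries, which may be technical. Each line is 1 cell line grown in culture, without brain tissue.

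In the clustered protocadherins a choice among many promoters decides which isoform a cell makes. Each alpha or gamma variable exon has its own promoter and encodes the extracellular cadherin repeats, the membrane span and part of the cytoplasmic tail, and it is spliced to constant exons shared by the whole cluster. The beta genes have a single exon and no constant part. In neurons, combinations of these isoforms recognise the same combination on another cell surface, which serves self-avoidance of dendrites and axons, and CTCF and cohesin bring the chosen promoter to a distant enhancer. Non-clustered protocadherins lie at scattered loci, act as homophilic adhesion molecules, and several of them are often silenced by promoter methylation in carcinomas.

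The promoters of clustered genes with the highest levels or the largest changes are shown first where they held a shared motif, because each variable exon is read from its own promoter. RefSeq (GRCh38.p14) gave a promoter of 250 bases before to 50 bases after the start for 54 of the 61 genes. The windows of 30 bases below run 5′ to 3′ on the plus strand, and the capitals mark a shared motif, which is GTGGCGCT in the beta genes and GCCGCTGT or GTCGCTGT in the gamma genes.
PCDHGB2 (chr5:141359924-141359953): aacctctgagcGTCGCTGTtggtcaaaaga
PCDHGB1 (chr5:141350028-141350057): aacctctgggcGCCGCTGTcgaccaaaagg
PCDHGB6 (chr5:141407927-141407956): agcctctgggcGCCGCTGTcggccagtgca
PCDHGA10 (chr5:141412934-141412963): ggactctgagcGCCGCTGTtcacctactag
PCDHGC3 (chr5:141475883-141475912): ggactctgtgtGCCGCTGTcggccaatgaa
PCDHB2 (chr5:141094545-141094574): agagacgcgggGTGGCGCTgcagccttaga
PCDHB9 (chr5:141187075-141187104): gaagccacaagGTGGCGCTgcagactgaag
PCDHB13 (chr5:141213866-141213895): gaggacgcgtgGTGGCGCTgcaggataaga
PCDHB14 (chr5:141223264-141223293): ggagacacatgGTGGCGCTacaggataaga

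The motifs were chosen after these promoters were read, were searched on both strands, and overlap in the letters CGCT. GTGGCGCT was found in 13 of 13 beta promoters, in PCDHB8 across the annotated start and in the other 12 before it, and in 1.15% of all 35116 RefSeq promoters. GCCGCTGT was found in 11 of 20 gamma promoters (1.63% of all promoters), and GTCGCTGT in 6 of 20 gamma and 3 of 11 alpha promoters (0.652% of all promoters). At least 1 of the 3 motifs was held by 17 of 20 gamma promoters, by 3 of 11 alpha promoters and by 0 of 10 non-clustered promoters, against 3.38% of all promoters. PCDHA11 and the non-clustered PCDH18, PCDH7 and PCDH9 had no match in their promoters and are not shown, and PCDHGA12, PCDHB11 and PCDH20 had no entry. Genes that rose and genes that fell carried the same motif: PCDHGA10 and PCDHGB6, which moved in opposite directions, both hold GCCGCTGT, and PCDHB9 and PCDHB13, which also moved in opposite directions, both hold GTGGCGCT. For PCDHGB2, the gene with the largest change, the 156 bases of that promoter that precede the annotated gene (chr5:141359886-141360041, plus strand) are given in full, with the motif in capitals.
PCDHGB2 upstream sequence: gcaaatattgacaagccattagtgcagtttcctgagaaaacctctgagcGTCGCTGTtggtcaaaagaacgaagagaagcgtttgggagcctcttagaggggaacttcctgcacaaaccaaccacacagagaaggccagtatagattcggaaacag

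Levels are given as FPKM, read fragments scaled by transcript length and by the mapped reads of the library. On the log2 scale, 2 libraries of 1 line correlated at 0.997 or more across genes, and 2 libraries of different lines at 0.902 or less. VIM, a mesenchymal marker, had a mean of 2550 FPKM in 231BR and 2310 FPKM in MDA-MB-231, and the epithelial CDH1 was at most 0.03 FPKM in any library. Of 6 mesenchymal markers, 3 rose in 231BR (VIM, ZEB1 and FN1) and 3 fell (AXL, CD44 and SPARC, the last at 0.18 against 0.673 FPKM). Among luminal markers, EPCAM (8.70 against 5.06 FPKM), ERBB2 (9.88 against 4.95 FPKM) and GATA3 (1.24 against 0.433 FPKM) rose. ESR1 did not pass, and CDH1 and PGR were too low to test. Because protocadherins are best known from neurons, 6 neuronal markers were read beside them. Their summed level was 57.9 to 60.6 FPKM in 231BR and 21.6 to 23.1 FPKM in MDA-MB-231, of which TUBB3 gave 53.0 and 21.5 FPKM and SYT1 gave 6.35 and 0.38 FPKM. The defining neuronal markers STMN2 and RBFOX3 were at most 0.02 and 0.16 FPKM. SNAP25 was lower in 231BR (0.0533 against 0.203 FPKM, log2 fold change -0.99, limma adjusted p = 0.0025), and SYP, at 0.15 against 0.20 FPKM, did not pass. The test took genes with a mean of at least 0.1 FPKM over the 6 libraries. SNAP25 reached that level through MDA-MB-231, so its direction is in part set by this criterion. Markers of astrocytes summed to 4.11 to 4.45 against 1.01 to 1.42 FPKM, of which SLC1A3 gave 3.82 and 0.897 FPKM and ALDH1L1 0.39 and 0.267 FPKM, with GFAP at most 0.07 and AQP4 at most 0.01 FPKM, those of oligodendrocytes to 20.7 to 21.3 against 12.8 to 14.3 FPKM, nearly all of it MBP, those of endothelium to 1.8 to 2.14 against 0.66 to 0.85 FPKM, those of luminal epithelium to 20.4 to 21.2 against 10.8 to 11.6 FPKM, and those of leukocytes to at most 0.31 FPKM. The part of these markers in the protocadherin values was not tested. In such bulk samples, fewer cells expressing a gene and less RNA per cell cannot be told apart.

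Protocadherin RNA was low in both lines, and its sum differed less between the lines than the genes that supplied it. The 61 genes together gave 22.2, 21.5 and 21.7 FPKM in the 3 libraries of 231BR and 25.5, 25.6 and 25.1 FPKM in those of MDA-MB-231. The sum was thus slightly lower in every 231BR library, and sums carry no test. Only 6 or 7 protocadherins reached 1 FPKM in a given library, and 9 had a mean of at least 1 FPKM in either line: PCDHGB2, PCDHGC3, PCDHGB1, PCDHB2, PCDHB13, PCDHB14, PCDH20, PCDH9 and PCDH7. The gamma sum was 8.24, 8.10 and 8.63 FPKM in 231BR and 15.1, 15.7 and 15.4 FPKM in MDA-MB-231. The other groups summed higher in every 231BR library. The beta sum was 7.35, 7.14 and 6.22 against 5.56, 5.0 and 4.78 FPKM, the non-clustered sum 5.69, 5.49 and 6.05 against 4.59, 4.80 and 4.69 FPKM, and the alpha sum 0.94, 0.82 and 0.79 against 0.24, 0.14 and 0.21 FPKM.

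Each gene with a mean of at least 0.1 FPKM over the 6 libraries was tested between the lines with limma on log2(FPKM + 0.1), a scale that understates the change of low genes. A gene passed at an adjusted p under 0.05, and was called when its absolute log2 fold change also exceeded 1. Of the 61 protocadherins, 36 could be tested, and the other 25 did not exceed 0.21 FPKM in any library. Among those tested, 24 passed, 15 higher and 9 lower in 231BR, which is 66.7% beside 77.3% of all 13465 genes tested (44.4% higher, 32.9% lower). By fold change as well, 9 were called, 5 higher and 4 lower, which is 25.0% beside 15.2% of all genes tested (10.9% higher, 4.34% lower) and 32.4% of the tested genes with a mean under 1 FPKM. In 14 of the 36 tested protocadherins every 231BR library lay above every MDA-MB-231 library, and in 10 of the 36 below, and such a separation was seen in 78.4% of all genes tested. Of the 36, 12 had a mean under 0.1 FPKM in 1 line and entered the test through the other line, 8 through 231BR and 4 through MDA-MB-231, so these counts are a description. The 8 were PCDHA11, PCDHAC1, PCDHAC2, PCDHGA9, PCDHGA10, PCDH10, PCDH17 and PCDH18, and the 4 were PCDHB8, PCDHGA11, PCDHGA12 and PCDHGB6. For these 12 the direction is in part set by the level criterion, and their p-values carry that selection. The median log2 fold change was 0.10 for the tested protocadherins and 0.08 for all genes tested. Quantile normalization moved the latter to -0.06, and lowered by more each protocadherin that was called or had a mean of at least 1 FPKM in either line.

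The gamma cluster held both the largest decrease and a change of leading isoform. PCDHGB2 (chr5:141360042-141512979, plus strand, first exon 141360136-141362556, GENCODE 29 on GRCh38) was the most abundant protocadherin of MDA-MB-231 cells, with 6.45, 6.38 and 6.20 FPKM, and had 0.29, 0.42 and 0.43 FPKM in 231BR cells. The groups lay far apart, and the mean of 6.34 ± 0.129 FPKM (SD, n = 3) was 16.7 times that of 0.38 ± 0.0781 FPKM (SD, n = 3). The log2 fold change was -3.76 ± 0.12 (SE; limma, adjusted p = 1.8e-09). PCDHGB2 made up 40.3% to 42.8% of the summed gamma FPKM in MDA-MB-231 and 3.52% to 5.19% in 231BR. Without it, the gamma sum was 7.95, 7.68 and 8.20 FPKM in 231BR and 8.62, 9.29 and 9.19 FPKM in MDA-MB-231, a log2 ratio of -0.19 in place of -0.89.

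PCDHGC3, a C-type isoform whose first exon lies near the constant exons, led the gamma cluster in 231BR cells. It had 3.23, 3.03 and 3.47 FPKM in 231BR and 2.43, 3.01 and 2.50 FPKM in MDA-MB-231, which was 37.4% to 40.2% and 16.1% to 19.2% of the gamma sum. Its libraries were nearly in contact, and the log2 fold change of 0.29 ± 0.0927 (SE; limma, adjusted p = 0.017) no longer passed with median-of-ratios scaling (0.21, adjusted p = 0.066), with quantile normalization (0.0022, adjusted p = 0.98) or without 231BR replicate 3 (adjusted p = 0.069), MDA-MB-231 replicate 1 (adjusted p = 0.06) or MDA-MB-231 replicate 3 (adjusted p = 0.055). PCDHGB1, whose first exon precedes that of PCDHGB2, had 1.34, 1.46 and 1.39 FPKM in 231BR and 2.74, 2.82 and 3.36 FPKM in MDA-MB-231. It fell in every 231BR library, with a log2 fold change of -1.03 ± 0.0934 (SE; limma, adjusted p = 3.2e-06), which shrank to -0.94 and below the fold criterion without MDA-MB-231 replicate 3. An annotated transcript of another gene, AC005618.3, overlaps the exons of PCDHGB1, and the library protocol describes no marking of the strand, so reads of both cannot be told apart there.

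**Figure D1:**
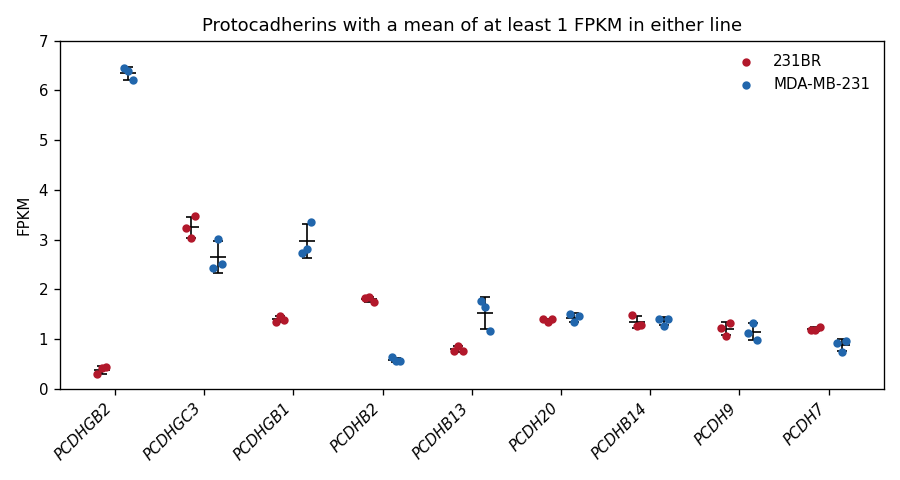
FPKM (vertical axis) of the 9 protocadherins with a mean of at least 1 FPKM in either line, for 231BR (red) and MDA-MB-231 (blue); points are the 3 libraries of a line, horizontal bars the mean and error bars 1 SD. PCDHGB2 stands at 6.20 to 6.45 FPKM in MDA-MB-231 and at 0.29 to 0.43 FPKM in 231BR, whereas PCDH20, PCDHB14 and PCDH9 overlap between the lines.

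PCDHGA10 was the called gamma gene that rose. It had 0.64, 0.58 and 0.54 FPKM in 231BR and 0.05, 0.10 and 0.10 FPKM in MDA-MB-231, without overlap. Its log2 fold change was 1.92 ± 0.175 (SE; limma, adjusted p = 3.5e-06), and its share of the gamma sum was 6.26% to 7.77% in 231BR and 0.332% to 0.65% in MDA-MB-231. The remaining called gamma genes were low in both lines. PCDHGA12 had 0.03 FPKM in each 231BR library and 0.16, 0.25 and 0.23 FPKM in MDA-MB-231 (log2 fold change -1.26 ± 0.201, SE; limma, adjusted p = 0.00023). PCDHGB6 had 0.08, 0.07 and 0.00 FPKM in 231BR and 0.19, 0.17 and 0.24 FPKM in MDA-MB-231 (log2 fold change -1.04 ± 0.259, SE; limma, adjusted p = 0.0041), and its log2 fold change was -0.77 without 231BR replicate 3, the library listed at 0. Both were lower in every 231BR library, and the number of reads behind these levels is not known.

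The rest of the gamma cluster moved in both directions by less than the fold criterion. PCDHGB7 (log2 fold change 0.73) and PCDHGA1 (0.62) rose, and PCDHGB3 (-0.79), PCDHGA5 (-0.65) and PCDHGA7 (-0.58) fell, all under 0.6 FPKM in every library. PCDHGA4, PCDHGA6, PCDHGA9 and PCDHGA11 did not pass, with log2 fold changes of -0.48, -0.41, 0.53 and -0.30. In all, 11 of the 15 tested gamma genes passed, 4 higher and 7 lower, which is 73.3% beside 77.3% of all genes tested. Their median log2 fold change was -0.48 over the 15, beside 0.08 for all genes tested. The other 7 gamma genes were too low to test.

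**Figure D2:**
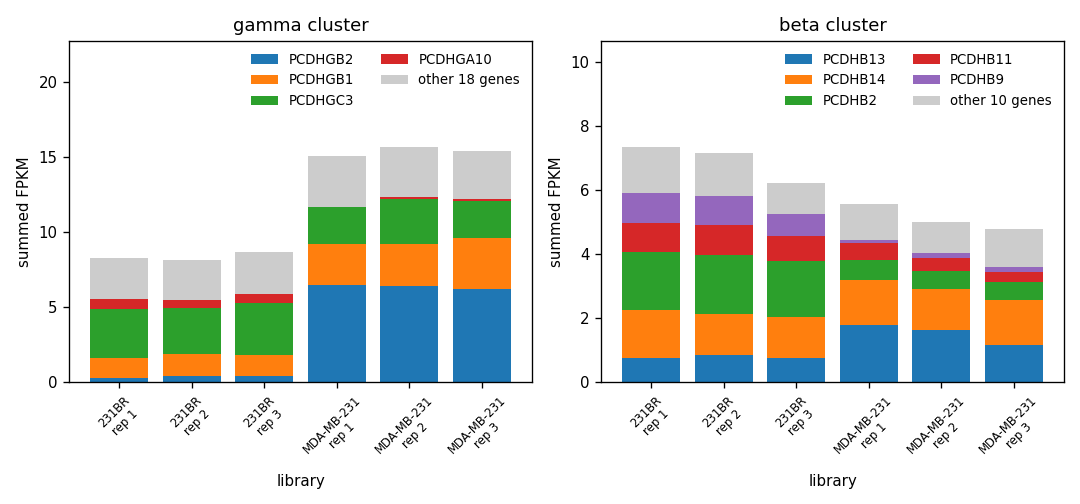
Summed FPKM per library (vertical axis) of the gamma cluster (left) and the beta cluster (right), with each coloured segment 1 gene and grey the remaining genes of the cluster. The blue PCDHGB2 segment fills 40.3% to 42.8% of the gamma bars of MDA-MB-231 and 3.52% to 5.19% of those of 231BR, and in the beta bars PCDHB2 and PCDHB9 take a larger and PCDHB13 a smaller share in 231BR.

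In the beta cluster the leading gene also differed between the lines, at a more even sum. PCDHB2 (chr5:141094578-141098703, plus strand, 1 exon) had 1.82, 1.84 and 1.74 FPKM in 231BR and 0.63, 0.56 and 0.55 FPKM in MDA-MB-231. It rose without overlap, from 0.58 ± 0.0436 to 1.80 ± 0.0529 FPKM (SD, n = 3 each), with a log2 fold change of 1.48 ± 0.0984 (SE; limma, adjusted p = 3e-07). Its share of the beta sum was 24.8% to 28.0% in 231BR and 11.2% to 11.5% in MDA-MB-231. PCDHB9 (chr5:141187127-141191541, plus strand, 1 exon) had 0.93, 0.93 and 0.70 FPKM in 231BR and 0.09, 0.17 and 0.17 FPKM in MDA-MB-231. It also rose in every 231BR library, with a log2 fold change of 1.98 ± 0.187 (SE; limma, adjusted p = 4.4e-06). PCDHB11 rose by less, with 0.92, 0.92 and 0.77 against 0.52, 0.41 and 0.30 FPKM (log2 fold change 0.95, limma adjusted p = 0.00051).

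PCDHB13 moved the other way. It had 0.76, 0.86 and 0.76 FPKM in 231BR and 1.77, 1.64 and 1.16 FPKM in MDA-MB-231, where it led the beta cluster in 2 of the 3 libraries. The groups did not overlap, although MDA-MB-231 replicate 3 lay well below the other two, and the log2 fold change was -0.84 ± 0.148 (SE; limma, adjusted p = 0.00044). Without that library the log2 fold change was -1.02 and past the fold criterion. PCDHB14, between PCDHB13 and PCDHB15 on the chromosome, had 1.48, 1.27 and 1.28 FPKM in 231BR and 1.41, 1.26 and 1.41 FPKM in MDA-MB-231, and the 95% interval of its log2 fold change ran from -0.24 to 0.20. PCDHB8, PCDHB10, PCDHB12 and PCDHB15 did not pass either, at log2 fold changes of -0.53, 0.11, 0.09 and 0.03, and the other 6 beta genes were too low to test.

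The alpha cluster was close to silent in MDA-MB-231 cells. Only 3 of its 12 genes could be tested, and all 3 entered through 231BR, so that their direction is in part set by the level criterion. PCDHA11 (chr5:140868183-141012344, plus strand) had 0.22, 0.26 and 0.18 FPKM in 231BR and 0.01, 0.01 and 0.00 FPKM in MDA-MB-231, a log2 fold change of 1.58 ± 0.203 (SE; limma, adjusted p = 4.6e-05). The C-type isoform PCDHAC2 had 0.17, 0.15 and 0.16 against 0.04, 0.05 and 0.03 FPKM (log2 fold change 0.89, limma adjusted p = 0.0016). Both were higher in every 231BR library. PCDHAC1, the other C-type isoform, had 0.07, 0.20 and 0.29 against 0.03, 0.02 and 0.07 FPKM (log2 fold change 0.97, limma adjusted p = 0.016), and its lowest 231BR library equalled the highest of MDA-MB-231. Of the 9 untested alpha genes, the highest value in any library was 0.17 FPKM, in PCDHA13.

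Isoforms of 1 cluster share sequence, which limits how well reads could be given to one of them. In GENCODE 29, the stretches as long as a read (100 bases) that also occur in another protocadherin transcript were 44.6% to 55.0% of those of a gamma gene (median 46.8%) and 46.0% to 64.0% of those of an alpha gene (median 54.0%), since the constant exons are common to each cluster. For the beta genes they were 2.5% to 25.7% (median 6.5%). PCDHGB2 shared 51.1%, nearly all of it with PCDHGB1 as well. The values of single alpha and gamma genes are therefore uncertain to the extent that the authors' counting divided shared reads, and how it did so is not given in the sources used here. PCDHB9 shared 10.7% of its stretches, mainly with PCDHB10, and PCDHB13 shared 15.1%, of which most also with PCDHB8. Annotated transcripts of other genes overlap the exons of PCDHB2, PCDHB9, PCDHB11, PCDHB14 and PCDH20, and none overlap those of PCDHGB2, PCDHGA10, PCDHGA12, PCDHGB6, PCDHB13, PCDHA11 or PCDH18.

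The clustered genes lie side by side on the plus strand of chromosome 5, and their changes ranged more widely than those of the genes around them. The levels differed too: the flanking genes had means from 2.06 FPKM (RELL2) to 68.2 FPKM (DIAPH1), and most tested clustered genes were under 1 FPKM. Of all tested genes under 1 FPKM, 32.4% were called, beside 15.2% of all genes tested. The part of the level in the wider range was not tested. The 5 tested genes on either side of the cluster, WDR55, DND1, HARS, HARS2 and ZMAT2 before it and DIAPH1, HDAC3, RELL2, FCHSD1 and ARAP3 after it, had log2 fold changes from -0.42 to -0.07 (median -0.24), and 0 of the 10 were called, of which 8 passed the adjusted p of limma alone, all lower in 231BR. TAF7, a general transcription factor gene between the beta and gamma genes, had 73.3, 69.2 and 70.4 FPKM in 231BR and 83.4, 85.9 and 83.9 FPKM in MDA-MB-231 (log2 fold change -0.25). SLC25A2, the other such gene, was at most 0.03 FPKM and was not tested. Within the cluster, by contrast, some adjacent genes moved in opposite directions, and others moved the same way. PCDHGB6 (-1.04) was followed by PCDHGA10 (1.92) and PCDHGB7 (0.73), and PCDHGA12 (-1.26) lay 2 tested genes further on. PCDHGB2 (-3.76) had PCDHGA4 (-0.48) before it and PCDHGA5 (-0.65) after it, neither of which was called. All tested genes from PCDHGB1 (-1.03) to PCDHGA7 (-0.58) had a negative log2 fold change, with PCDHGB3 at -0.79 and PCDHGA6 at -0.41. Of these, PCDHGA4 and PCDHGA6 did not pass.

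**Figure D3:**
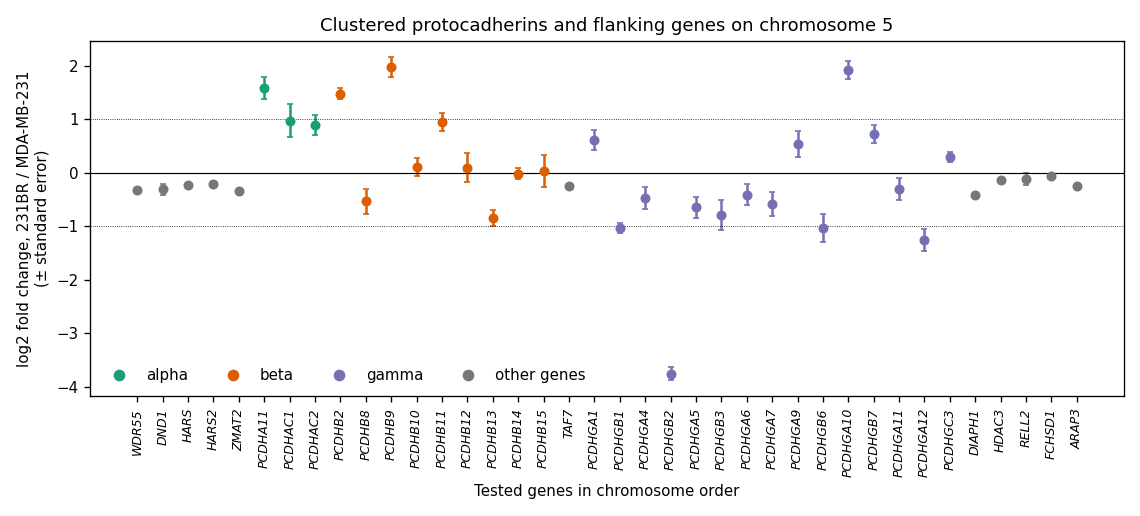
Log2 fold change of 231BR over MDA-MB-231 (vertical axis, error bars 1 SE) of the tested alpha (green), beta (orange) and gamma (violet) genes and of TAF7 and flanking genes (grey), in the order of the chromosome; dotted lines mark 1 and -1. The flanking genes sit between -0.42 and -0.07, while the protocadherins range from -3.76 for PCDHGB2 to 1.98 for PCDHB9.

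Among the non-clustered genes, those with the highest levels differed little between the lines, and the largest change was in a gene of low level. PCDH18, a delta-class protocadherin (chr4:137518918-137532494, minus strand), had 0.64, 0.58 and 0.49 FPKM in 231BR and 0.02, 0.06 and 0.05 FPKM in MDA-MB-231. It rose in every 231BR library, with a log2 fold change of 2.23 ± 0.185 (SE; limma, adjusted p = 1.6e-06), and gave 8.1% to 11.2% of the non-clustered sum against 0.436% to 1.25%. The 40 nearest genes with a mean of at least 1 FPKM, 20 on either side, had a median log2 fold change of 0.60 around PCDH18 and 0.59 around PCDH10 on the same chromosome. PCDH10, which is often methylated in carcinomas, had 0.16, 0.22 and 0.18 against 0.05, 0.09 and 0.07 FPKM (log2 fold change 0.76, limma adjusted p = 0.0052). It too was higher in every 231BR library, and the part of the neighbourhood in the values of either gene was not tested.

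PCDH7, which in brain metastasis models is known for joining carcinoma cells to astrocytes and helping gap junctions form between them, had 1.18, 1.18 and 1.25 FPKM in 231BR and 0.93, 0.74 and 0.97 FPKM in MDA-MB-231. It was higher in every 231BR library, with a log2 fold change of 0.42 ± 0.116 (SE; limma, adjusted p = 0.0077), which turned to -0.0015 (adjusted p = 0.99) under quantile normalization. PCDH20 had 1.40, 1.35 and 1.40 FPKM in 231BR and 1.5, 1.34 and 1.46 FPKM in MDA-MB-231 (95% interval of the log2 fold change -0.24 to 0.15). PCDH9 had 1.22, 1.07 and 1.33 FPKM in 231BR and 1.12, 1.33 and 0.99 FPKM in MDA-MB-231 (95% interval -0.21 to 0.36). Both overlapped between the lines and did not pass (limma adjusted p = 0.64 and 0.62), while the 40 neighbours of each on chromosome 13 had a median log2 fold change of -0.41. Under quantile normalization both passed, PCDH20 at -0.44 and PCDH9 at -0.34.

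PCDH17, on the same chromosome, rose from 0.06, 0.12 and 0.06 FPKM in MDA-MB-231 to 0.21, 0.16 and 0.27 FPKM in 231BR (log2 fold change 0.80, limma adjusted p = 0.0071). PCDH1, which is best known from airway epithelium, was the non-clustered gene that fell, with 0.27, 0.26 and 0.21 FPKM in 231BR and 0.43, 0.67 and 0.56 FPKM in MDA-MB-231 (log2 fold change -0.90, limma adjusted p = 0.00078). Neither gene overlapped between the lines. PCDH11X had 0.24, 0.24 and 0.34 against 0.08, 0.10 and 0.13 FPKM (log2 fold change 0.87, limma adjusted p = 0.0019), but it shares 33.8% of its read-length stretches with its copy PCDH11Y, and its 40 neighbours had a median log2 fold change of 1.18. PCDH11Y, on chromosome Y, had 0.25, 0.32 and 0.42 against 0.28, 0.26 and 0.31 FPKM and did not pass (log2 fold change 0.15). It had 0 neighbours on that chromosome with a mean of at least 1 FPKM, and whether its reads came from PCDH11X was not tested. The sum of the pair was 0.49, 0.56 and 0.76 FPKM in 231BR and 0.36, 0.36 and 0.44 FPKM in MDA-MB-231. PCDH12, an endothelial protocadherin, PCDH15, part of the tip links of hair cells, and PCDH19, mutated in an epilepsy, were at most 0.11 FPKM and were not tested.

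**Figure D4:**
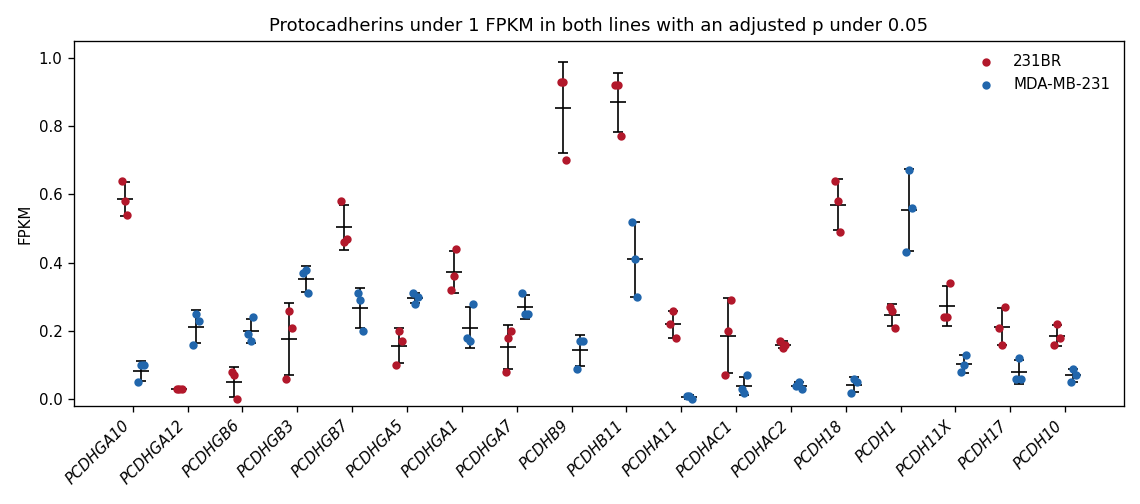
FPKM (vertical axis) of the 18 protocadherins that had a mean under 1 FPKM in both lines and passed the adjusted p, for 231BR (red) and MDA-MB-231 (blue); points are the 3 libraries of a line, horizontal bars the mean and error bars 1 SD. PCDHGA10, PCDHB9, PCDHA11 and PCDH18 are clearly higher in 231BR, PCDHGA12, PCDHGB6 and PCDH1 lower, and the lines meet at 0.07 FPKM in PCDHAC1.

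Genes that act with protocadherins were read from 5 lists, described by their counts beside the 77.3% of all genes tested that passed. Of 13 genes of the WAVE complex, which drives actin branching and is bound by several protocadherin tails, and of kinases held by those tails, 6 rose and 7 fell (median log2 fold change -0.24). WASF3 (log2 fold change 1.37, 8.10 against 3.08 FPKM) and CYFIP2 (1.09, 5.14 against 2.37 FPKM) rose most. PTK2B, the kinase PYK2 that the tails of the alpha and gamma proteins restrain, fell by 2.51 on the log2 scale, from 1.00 ± 0.111 to 0.0933 ± 0.0115 FPKM (SD, n = 3 each; limma, adjusted p = 1.2e-07), and ABI2 fell by 0.65. PTK2B had a mean under 0.1 FPKM in 231BR and entered the test through MDA-MB-231. Its direction is thus in part set by the level criterion, and its p-value carries that selection. Of the 8 genes of the proteases that cut protocadherins, 3 rose and 5 fell (median -0.22), with PSEN2 at 0.97, APH1B at 0.93, ADAM17 at -0.54, NCSTN at -0.49 and ADAM10, the sheddase, at -0.19, none of them past the fold criterion.

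Of the 22 genes of promoter choice and silencing, 9 rose and 8 fell (median -0.01). WIZ, a zinc finger partner of the histone methyltransferases EHMT1 and EHMT2, rose most (log2 fold change 1.08, 28.3 against 13.3 FPKM), followed by the DNA methyltransferase DNMT3B (0.77, 8.64 against 5.03 FPKM). SMCHD1, which helps to silence the clustered genes, fell most, from 21.0 ± 1.10 to 11.8 ± 0.425 FPKM (SD, n = 3 each; log2 fold change -0.82, limma, adjusted p = 9.1e-08). The cohesin genes moved both ways: SMC1A (-0.52) and STAG1 (-0.15) fell, RAD21 (0.59, 180 against 120 FPKM) and the cohesin loader NIPBL (0.21) rose, and SMC3 (-0.04), STAG2 (0.04) and the release factor WAPL (0.01) did not pass. The histone methyltransferase SETDB1 (-0.45) fell. CTCF had 35.3 ± 1.06 FPKM in 231BR and 36.5 ± 1.09 FPKM in MDA-MB-231 (SD, n = 3 each), with overlapping libraries, and did not pass (log2 fold change -0.05, limma, adjusted p = 0.23).

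Of 7 genes listed as PCDH7 partners or connexins, 6 could be tested, of which 3 rose and 3 fell (median -0.03). GJA1, the connexin gene of the astrocyte junctions, rose from 10.1 ± 0.865 to 17.9 ± 0.566 FPKM (SD, n = 3 each; log2 fold change 0.83, limma, adjusted p = 5.3e-07). GJB2, another connexin gene, fell from 1.75 ± 0.0854 to 0.693 ± 0.152 FPKM (log2 fold change -1.24, limma, adjusted p = 1.9e-05). The PCDH7 partner SET was 507 against 481 FPKM (log2 fold change 0.08), and PPP2R1A, a phosphatase subunit, fell (-0.28). TAF1 rose (0.86), but the gene listed under this symbol encodes a general transcription factor subunit and is not an established PCDH7 partner. Of 15 other large cadherin-superfamily genes measured, 8 could be tested, 5 rising and 3 falling (median 0.47). FAT4 rose from 1.14 ± 0.0436 to 5.21 ± 0.245 FPKM (SD, n = 3 each; log2 fold change 2.10, limma, adjusted p = 3e-09), FAT3 rose by a log2 fold change of 1.32 at 0.29 against 0.0567 FPKM, and FAT1 rose from 25.4 ± 1.59 to 46.3 ± 1.30 FPKM (log2 fold change 0.87, limma, adjusted p = 4.9e-08). FAT3 had a mean under 0.1 FPKM in MDA-MB-231 and entered the test through 231BR, which in part sets its direction. CELSR1 (-0.36) and CELSR3 (-0.34) fell. FAT1 alone was thus above the sum of all protocadherins in 231BR.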

How the data were processed

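Poly(A) RNA of 3 libraries of 231BR and 3 of MDA-MB-231 cells was sequenced on a BGISEQ-500 as paired reads of 100 bases. The authors filtered the reads with SOAPnuke and used HISAT2 2.0.4 against the genome and Bowtie2 2.2.5 against a gene set (GRCh38.p12, per the submitters' processing notes), and deposited FPKM with 2 decimals. The FPKM program and the annotation release are not given in the sources used here, and the depth per library is unknown. In R 4.3.3 with limma 3.58.1, log2(FPKM + 0.1) was fitted with a term for the line and a mean-variance trend over the 13465 genes with a mean of at least 0.1 FPKM, with Benjamini-Hochberg adjustment over them. The test was checked on simulated data with changes placed only in genes well above the lowest levels tested, so the check does not cover the lowest genes. Because counts were not at hand, this replaced a count test. Libraries were grouped by title. The cell line field of later replicates carries rising numbers, which was taken as a slip. The members and lists were chosen with earlier results of these data known. Named with values were protocadherins with a mean of at least 1 FPKM in either line or called, the 2 largest changes each way of every list and a few set genes. Genes that only passed the adjusted p were added after their values were seen. Alternatives were other pseudocounts, filters, scalings, a replicate term and leaving out each library. Positions came from GENCODE 29 (GRCh38), neighbour order from RefSeq. Python 3.11.15, pandas 2.3.3 and matplotlib 3.10.9 were used.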

Additional observations from a re-analysis of the deposited data

How the results depend on the processing

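The counts of called genes depended on how low values were treated. Main counts were 5 higher, 4 lower and 24 past the adjusted p. With a pseudocount of 1, 0 were called higher (24 passed the adjusted p) and 1 lower, PCDHGB2, and with 0.01, 11 higher. A filter at a mean of 1 FPKM left 1 higher, 2 lower and 6 past the adjusted p, as did a mean of at least 1 FPKM in either line, and a mean of at least 1 FPKM in both lines left 0, 1 and 2. Fewer genes are tested or counted in these 3 settings by construction. That filter also left 5 in place of 8 cadherin-superfamily genes. Quantile normalization lowered the log2 fold change of every protocadherin that was called or had a mean of at least 1 FPKM in either line. Examples are PCDHB2 (1.48 to 1.07), PCDH18 (2.23 to 1.83) and PCDHGB1 (-1.03 to -1.38). It called 8 lower, and the cause was not tested. Median-of-ratios scaling gave log2 ratios of the summed FPKM of -0.97 for gamma and 0.21 for non-clustered genes (from -0.89 and 0.29). Leaving out 1 library gave 5 to 6 higher, 3 to 5 lower and 21 to 25 past the adjusted p, and PCDHGB2 stayed between -3.84 and -3.62. Small log2 fold changes turned sign: PCDH7 to -0.0015 under quantile normalization, PCDH9 to -0.0045 under median-of-ratios scaling, to -0.34 (adjusted p = 0.029) under quantile normalization and to -0.02 without MDA-MB-231 replicate 3 (0.18 without replicate 2), and PCDHB14, from -0.08 to 0.018 over the libraries left out (0.0072 without MDA-MB-231 replicate 1 or 3, 0.013 without 231BR replicate 3). PCDHB14 passed under quantile normalization at -0.42. Deviations of same-numbered libraries correlated at 0.0873, -0.0396 and -0.106 over 11124 genes, and those of differently numbered libraries at -0.154 to 0.183. These deviations were taken from the mean of 3 libraries per line, so they cannot settle whether the libraries were paired. With the replicate block 5 genes were called higher and 4 lower, the same 9, and 25 passed the adjusted p. The number of reads behind a value is unknown.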
